A study of Bos taurus with 18 samples.

Results

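The change from forage to grain feeding was examined in the control cows of a feeding study, the animals that received no supplement. The comparison set the 5 libraries labelled HG_CON (high grain, control) against the 5 labelled FD_CON (forage diet, control), chosen by their sample titles, 10 of the 18 small RNA libraries of the series. Every mature miRNA entry of those libraries was taken: entries for the same miRNA were joined, which left 824 miRNAs, and 468 of them held enough reads to be tested. The tissue was papillae of the rumen, sampled by biopsy from 9 Holstein cows that were not in milk and carried a ruminal cannula. All cows first ate forage alone and were then moved to a diet with 65% concentrate, and 5 of them were controls while 4 received a supplement labelled PHY, an abbreviation the sources used here do not spell out. The comparison asked how the miRNAs of the rumen wall differ between the diets when no supplement is fed. Forage preceded grain in all cows, so the diets and the passage of time cannot be told apart. With 5 control cows and 10 libraries, both diets were sampled in the same animals, but the labels do not tie the library numbers to cows, so libraries were treated as independent samples.

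miRNAs are short RNAs that load into Argonaute proteins and, by pairing of their seed with matching sites in messenger RNAs, lower the stability and translation of those messengers. Many are made by few cell types, so a bulk miRNA profile reflects which cells a biopsy held as well as what those cells did. Rumen papillae are finger-like projections covered by a keratinised stratified squamous epithelium over a core of connective tissue and vessels, and they absorb the short-chain fatty acids that microbes release. Starch-rich diets are known to speed that fermentation and to lower the pH at this surface.

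Between 9.79 and 15.2 M reads (mega-reads) were counted per forage library (11.9 ± 2.04 M, SD, n = 5) and between 5.74 and 9.75 M per grain library (8.53 ± 1.63 M, SD, n = 5). Levels are given as CPM, read counts per mega-reads of the library after scaling by the TMM method, and differences as log2 fold changes of grain over forage with their standard errors (SE). Defining miRNAs of the labelled tissue were present: miR-205 of stratified epithelia, the epithelial miR-200 family, miR-143 of smooth muscle and other mesenchymal cells, and miR-126-3p of endothelium all had at least 2461 CPM in every control library, the level of miR-429 in forage 3. In such bulk tissue, fewer cells of a type and less RNA per cell cannot be told apart. Forage library 2 stood apart. It was the highest of the 10 libraries for 97 of the 468 miRNAs (20.7%), so values that move most without it are given both ways. Grain libraries 1 and 3 stood apart for some miRNAs typical of other organs and of red cells, and those results are given with and without them. Medians of several other lists also moved without these libraries.

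No miRNA passed the test for a difference between the diets in the control cows. With edgeR's quasi-likelihood test and Benjamini-Hochberg adjustment at 0.05, 0 of 468 miRNAs were called (0.00%), and the lowest adjusted p, shared by miR-143 and miR-25, was 0.345. DESeq2 and limma-voom with quality weights also called 0. At an unadjusted p under 0.05 there were 50 miRNAs (10.7%) by edgeR, 47 by DESeq2 and 45 by limma-voom. Of the 50, 18 were higher on grain (3.85% of those tested) and 32 lower (6.84%). Over all 468 miRNAs the median log2 change was -0.02, and 216 lay above 0. The differences were small. Among the 275 miRNAs that averaged 10 CPM or more, the median size of the log2 change was 0.17 and 12 passed a fold of 1.5 in either direction. The groups of 5 did not overlap for 5 miRNAs (1.07%), of which miR-25, miR-330 and miR-2320-5p were higher in every grain library than in any forage library (0.641%) and miR-143 and hsa-let-7d-3p were lower (0.427%). All values for single miRNAs below are therefore descriptions of differences that did not pass adjustment. They are given for the 15 miRNAs higher on grain and the 15 lower on grain with the lowest p among those of at least 10 CPM, and for members of known families and cell type lists.

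**Figure D1:**
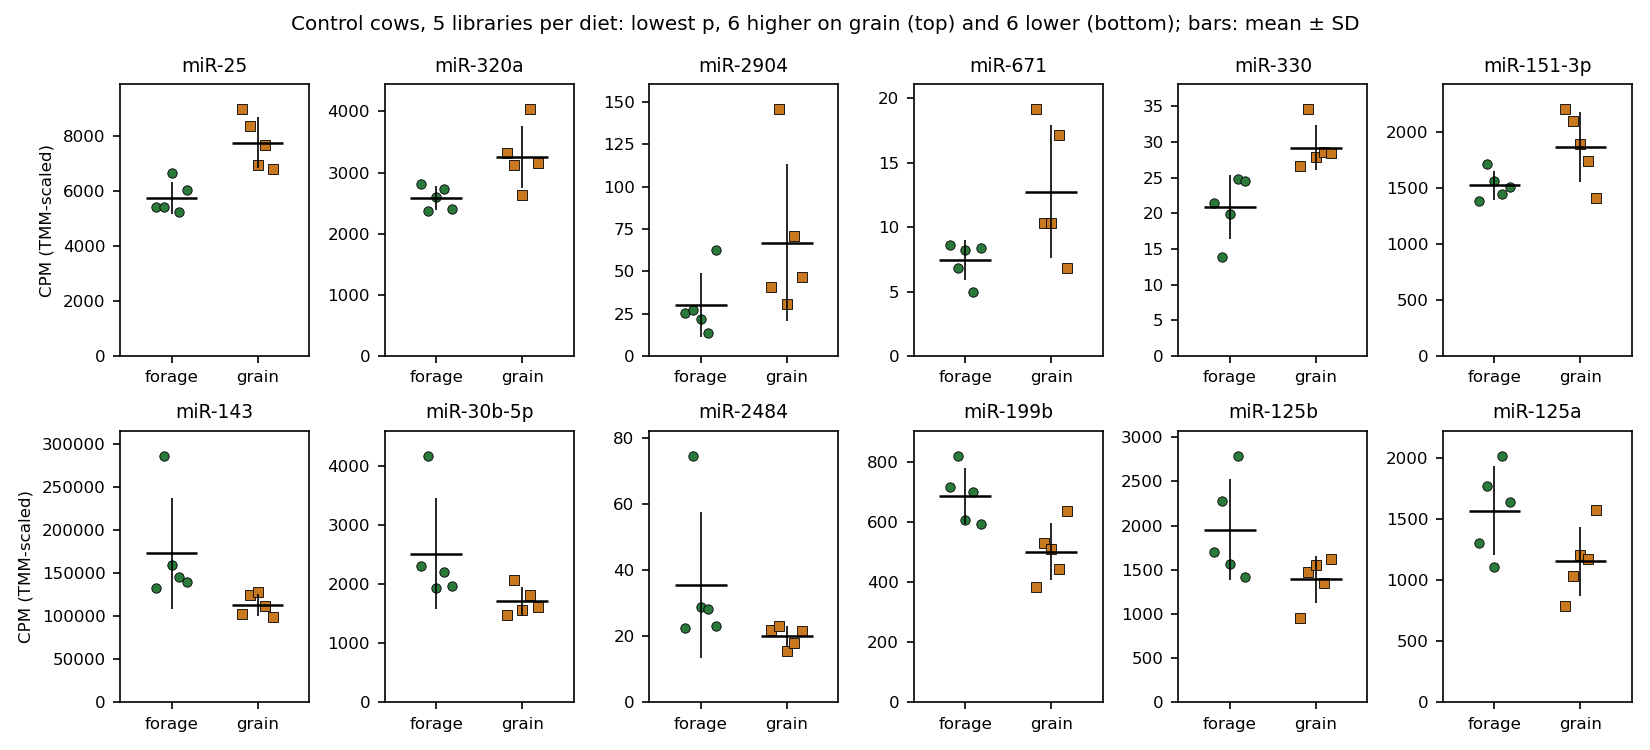
Level of 12 miRNAs (CPM, linear axes from 0) in each of the 5 forage (circles) and 5 grain (squares) libraries of control cows, with the mean as a horizontal line and the SD as a vertical one. The upper 6 have the lowest p among miRNAs higher on grain and the lower 6 among those lower on grain; for miR-143, miR-30b-5p and miR-2484 a single forage library, number 2, lies far above the other 4.

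The miRNA with the lowest p was miR-25 on chromosome 25, a member of the miR-106b-25 cluster that lies within the cell-cycle gene MCM7 in mammals. In forage libraries 1 to 5 it stood at 5406, 5413, 6662, 5218 and 6014 CPM, and in grain libraries 1 to 5 at 8967, 8362, 6935, 7673 and 6782 CPM. Every grain library was above every forage library, the closest being grain 5 and forage 3. The log2 change was 0.43 ± 0.12 (SE; unadjusted p = 0.00127; adjusted p = 0.345 by edgeR), and 0.37 without forage library 2. Its cluster partner hsa-miR-93-5p had a mean of 3588 ± 222 CPM (SD, n = 5) with forage and 4098 ± 478 CPM with grain, a log2 change of 0.19 ± 0.10. The other partner, miR-106b, was near 0, at 1822 ± 215 CPM with forage and 1876 ± 229 CPM with grain (0.04 ± 0.11). The opposite strand of the hairpin, hsa-miR-25-5p, was scarce (3.31 to 6.99 CPM over the forage libraries) and had a log2 change of -0.09 ± 0.30. miR-32, which shares its seed with miR-25 and miR-92a, stood at 0.27 ± 0.14, and miR-92a at 0.25 ± 0.19. Their relative miR-92b had 0.09 ± 0.15 and the scarce miR-363 0.30 ± 0.30. In the whole list of the miR-17-92 cluster and its paralogs, which are known to promote proliferation, 10 of 18 tested members were above 0 and 8 below, with a median of 0.02. Of those 18, miR-25 was the member higher on grain at an unadjusted p under 0.05, and the scarce miR-20b (2.50 ± 1.15 CPM on forage, 1.18 ± 0.419 CPM on grain) the one that was lower.

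Next by p came miR-320a, whose precursor is known to bypass Drosha processing. Its forage libraries held 2806, 2377, 2600.0, 2727 and 2401 CPM and its grain libraries 3322, 3128, 2639.5, 4037 and 3159.9 CPM. In 4 of 5 grain libraries it lay above all forage libraries, grain 3 being the exception, and the log2 change was 0.34 ± 0.12 (0.26 without forage 2). miR-330 had 21.5, 13.9, 19.9, 24.9 and 24.5 CPM with forage and 26.6, 34.6, 27.9, 28.6 and 28.4 CPM with grain. These groups did not overlap, but grain 2 was high and forage 2 low, and the log2 change of 0.48 ± 0.19 came to 0.32 without forage 2, at an unadjusted p of 0.0773. For miR-151-3p, which is encoded in an intron of the focal adhesion kinase gene PTK2, the forage libraries held 1381, 1715, 1567, 1446 and 1512 CPM and the grain libraries 2205, 2100.2, 1891, 1737 and 1408 CPM. Grain 5 was the library within the forage range, and the log2 change was 0.29 ± 0.12. Its opposite strand miR-151-5p stood at -0.03 ± 0.10.

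miR-210, which hypoxia is known to induce through HIF, ranged over 188 to 285 CPM with forage and 253 to 464 CPM with grain. All grain libraries but number 3 exceeded every forage library, and the log2 change was 0.45 ± 0.18 (unadjusted p = 0.0244, and 0.0262 without forage 2). The p53-responsive miR-34a, from the same list, had a log2 change of -0.23 ± 0.15 and miR-34c one of 0.03 ± 0.35, which made 2 of 3 above 0 (median 0.03). miR-183, first known from sensory cells, ranged over 239 to 341 CPM with forage and 304 to 455 CPM with grain (log2 change 0.33 ± 0.14, and 0.24 at an unadjusted p of 0.116 without forage 2). It shares a transcript with miR-182 (0.18 ± 0.13) and miR-96 (-0.12 ± 0.16), so 2 of 3 members were above 0 (median 0.18). miR-671 was at 7.41 ± 1.55 CPM with forage and 12.7 ± 5.18 CPM with grain (log2 change 0.78 ± 0.29), miR-744 at 12.3 ± 3.74 and 18.9 ± 4.48 CPM (0.62 ± 0.25) and miR-345-3p at 15.4 ± 3.93 and 21.7 ± 5.28 CPM (0.49 ± 0.24). In each of these, 4 of 5 grain libraries exceeded all forage libraries. Without forage 2 their log2 changes were 0.70, 0.45 and 0.39, at unadjusted p-values of 0.0401, 0.0870 and 0.138.

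The largest log2 changes upward among the 15 belonged to miR-2332, at 1.40 ± 0.58, and miR-2904, at 1.15 ± 0.43, and both were uneven within a diet. miR-2332 was at 223, 28.9, 267, 153 and 53.8 CPM in the forage libraries and at 414, 245, 255, 896 and 104 CPM in the grain libraries. Grain 4 was far above the rest, and the ranges overlapped widely. Without forage 2, the lowest library, the log2 change was 1.08 (unadjusted p = 0.0701). For miR-2904, forage held 25.5, 27.3, 21.9, 13.7 and 62.4 CPM and grain 40.8, 146, 30.4, 71.02 and 46.9 CPM, with grain 2 the highest and forage 5 above 3 of the grain libraries. Its reads fit many positions on 6 chromosomes, so its origin is uncertain.

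On the other side, miR-143 on chromosome 7 had the lowest p. This smooth muscle miRNA, which with miR-145 maintains the contractile state of those cells, was the second most abundant of all. Its forage libraries held 133204, 286183, 159075, 145965 and 139255 CPM and its grain libraries 102966, 124856, 127938, 111993 and 99054 CPM. Forage 2 was far above the other 4, and all 5 grain libraries were nonetheless below all forage libraries. The log2 change was -0.61 ± 0.17 (SE; unadjusted p = 0.00148; adjusted p = 0.345 by edgeR). Without forage 2 it was smaller, -0.39, with an unadjusted p of 0.000798. miR-145, from the same transcript, stood at 4865, 10602, 5378, 5060.4 and 3850.0 CPM with forage and at 3689, 5271, 4313, 3652 and 3578 CPM with grain. Forage 2 was again the highest, grain 2 and 3 lay within the forage range, and the log2 change of -0.54 ± 0.20 was -0.27 without forage 2 (unadjusted p = 0.0631). The opposite strand, hsa-miR-145-3p, had a log2 change of -0.47 ± 0.20 (-0.22 without forage 2).

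Markers of the supporting tissue lay below 0 throughout, and 0 of them passed adjustment. In the muscle list 6 of 6 tested members were below 0 (median -0.34) and 3 had an unadjusted p under 0.05, the first being miR-143 and the others the 2 strands of miR-145. The striated muscle members miR-1 (-0.22 ± 0.20), miR-499 (-0.16 ± 0.17) and miR-133a (-0.15 ± 0.24) were closer to 0. Without forage 2, whose muscle miRNAs summed to 301075 CPM against 119465 ± 13642 CPM (SD, n = 5) on grain, the median was -0.17, 5 of 6 were below 0 and 1 had an unadjusted p under 0.05. Without grain 1 and 3 the muscle median was -0.39. In the fibroblast list 7 of 7 were below 0 (median -0.33), and 4 had an unadjusted p under 0.05: miR-199b, miR-199a-3p, miR-199a-5p and miR-199c. The median was -0.22 without grain 1 and 3. Without forage 2 it was -0.35, and 4 of 7 then had an unadjusted p under 0.05, miR-199c not among them (0.0616). Most reads of miR-199a-3p, miR-199a-5p and miR-199c fit several names or loci, so these members may share reads and are not independent. The summed level of the list was 7676 to 10699 CPM on forage and 6089 to 8691 CPM on grain. miR-199b stood at 719, 822, 606, 703 and 594 CPM with forage and 386, 532, 511, 445 and 636 CPM with grain. Grain 5 alone reached the forage range, and the log2 change was -0.46 ± 0.16. miR-199a-3p, the most abundant of them, was at 6551 ± 975 CPM with forage and 5211 ± 623 CPM with grain (-0.33 ± 0.15), and miR-214, made from the same transcript as miR-199a, had a log2 change of -0.21 ± 0.18.

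Endothelial miRNAs were below 0 in 3 of 3 members (median -0.34, -0.23 without forage 2 and -0.19 without grain 1 and 3). The list holds the strands of miR-126 and miR-218, and its most abundant member, miR-126-3p, was closest to 0. miR-126-5p had 2352, 3664, 2403, 2389.9 and 2203 CPM with forage and 2306, 2107, 2295, 1606 and 1955 CPM with grain, with forage 2 far above the rest. Forage 1, 3 and 4 lay just above the highest grain library, and forage 5 among the grain libraries. Its log2 change of -0.34 ± 0.14 was -0.23 without forage 2 (unadjusted p = 0.0810). The more abundant miR-126-3p, from the same hairpin, had a log2 change of -0.11 ± 0.10, and miR-218, from an intron of the SLIT genes, one of -0.38 ± 0.17 (-0.30 without forage 2, unadjusted p = 0.0748). The miR-29 family, known to repress collagens and other matrix genes, was below 0 in 9 of 9 members (median -0.25, and -0.22 with 7 of 9 below 0 without forage 2). Without grain 1 and 3 the family median was -0.16. The main strand miR-29a stood at 10097 ± 1228 CPM (SD, n = 5) with forage and 8620.0 ± 1091 CPM with grain (-0.23 ± 0.12). Its opposite strand hsa-miR-29a-5p, at 10.8 to 19.4 CPM with forage and 7.73 to 15.3 CPM with grain, had the only unadjusted p under 0.05 of the family (0.0444, and 0.0628 without forage 2). miR-29d-5p and hsa-miR-29c-5p hold nearly the same reads and count as 1 measurement.

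**Figure D2:**
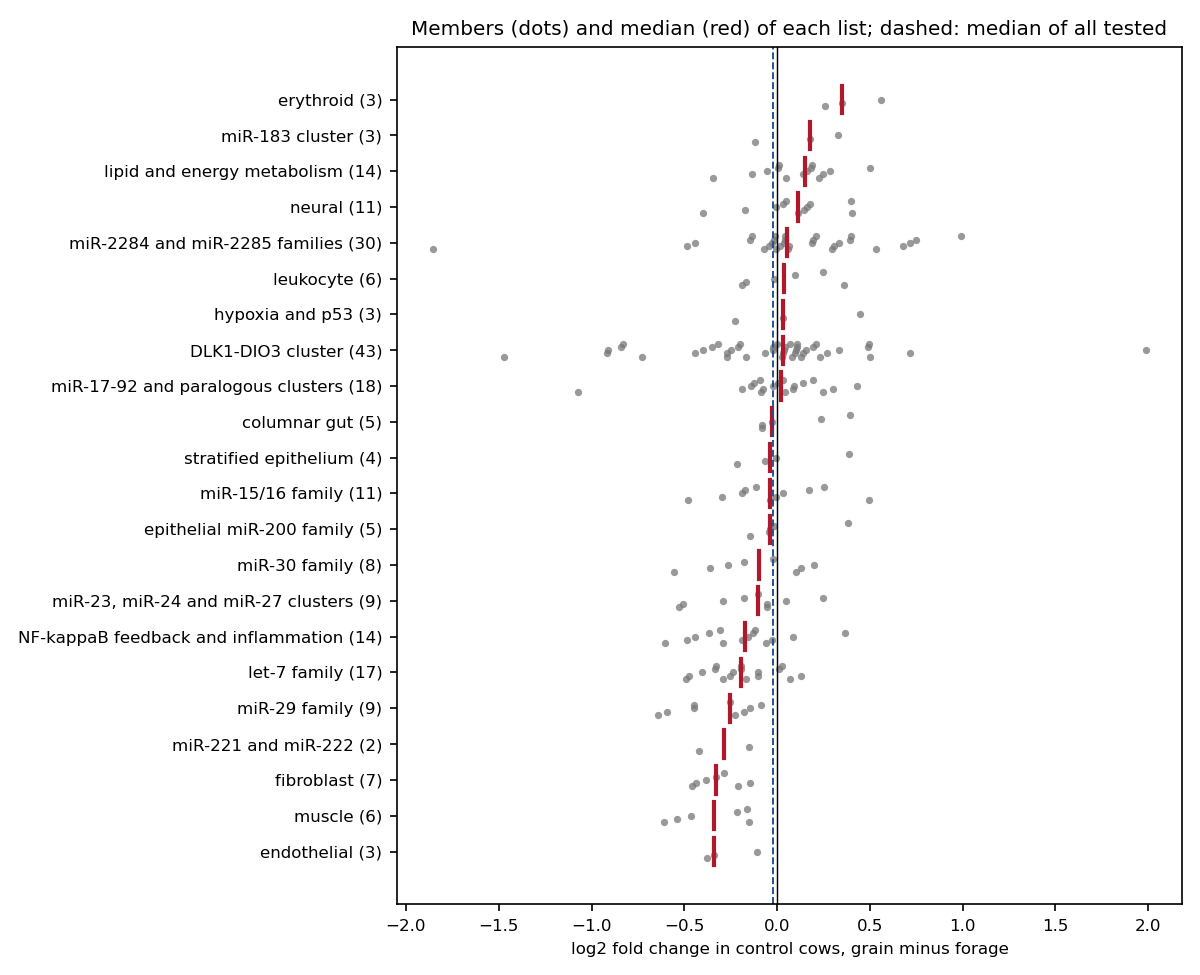
Log2 fold change of grain over forage in control cows for the tested members of 22 miRNA lists (grey dots; number tested in brackets), with the median of each list in red and the median over all 468 tested miRNAs (-0.02) as a dashed line. The erythroid list has the highest median (0.35); the endothelial, muscle and fibroblast lists have the lowest (-0.34, -0.34 and -0.33), with all their members left of 0. In the endothelial list the most abundant member, miR-126-3p, lies at -0.11.

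Several abundant regulators of growth and inflammation were lower on grain as well. miR-30b-5p, of a family known to restrain epithelial-mesenchymal transition, had 2314, 4178, 1931, 2208 and 1969.5 CPM with forage and 1489, 2081, 1571, 1823 and 1621 CPM with grain. The 4 forage libraries other than number 2 lay between 1931 and 2315 CPM, and grain 2 fell among them. The log2 change was -0.55 ± 0.17, and -0.34 without forage 2 (unadjusted p = 0.00512). miR-30c, which differs from miR-30b in few bases outside the seed, had -0.36 ± 0.15 (-0.28 without forage 2, unadjusted p = 0.0506), whereas the more abundant relatives miR-30e-5p (0.10 ± 0.10), miR-30a-5p (0.20 ± 0.27) and miR-30d (-0.02 ± 0.11) did not share that direction or size. Over the family, 5 of 8 members were below 0 (median -0.10). Without forage 2 there were 4 of 8, with a median of -0.0077.

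miR-125b, a homolog of worm lin-4 that restrains TNF signalling and differentiation in several cell types, stood at 1704, 2279.5, 1568, 2791 and 1416 CPM with forage and 957, 1472, 1554, 1354 and 1624 CPM with grain. Forage 2 and 4 were the highest and grain 1 the lowest, with the other libraries intermixed. Its log2 change was -0.49 ± 0.17 (-0.46 without forage 2), and that of its relative miR-125a was -0.44 ± 0.16 (-0.43). miR-21-5p, the most abundant miRNA and a target of STAT3 and AP-1, had 250917, 208214, 227987, 230736 and 303553 CPM with forage and 194082, 166883, 178285, 220385 and 238356 CPM with grain. The grain libraries were all below the forage mean, 3 of them below every forage library, and the log2 change was -0.29 ± 0.12 (unadjusted p = 0.0264). Without forage 2, which was the lowest of the forage libraries, it was -0.38 (unadjusted p = 0.00481). As a share of the counted reads, without TMM scaling, miR-21-5p took 22.6% ± 3.98 on forage and 20.9% ± 2.72 on grain (SD, n = 5; exact permutation p = 0.476). By that share 0 grain libraries lay below every forage library. miR-146a, which feeds back on Toll-like receptor signalling by lowering IRAK1 and TRAF6, had -0.31 ± 0.18, miR-146b -0.16 ± 0.18 and hsa-miR-155-5p -0.19 ± 0.14. In the whole list of inflammation and NF-kappaB feedback miRNAs, 12 of 14 were below 0 (median -0.17, and -0.25 without forage 2). miR-125b, miR-125a and miR-21-5p were those with an unadjusted p under 0.05.

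miR-222, which with miR-221 lowers the cell-cycle inhibitor p27, had 1109.9, 1000.4, 946, 909 and 1199 CPM with forage and 879, 505, 685, 933 and 863 CPM with grain. Grain 4 was the only library inside the forage range, and the log2 change was -0.42 ± 0.16 (-0.47 without forage 2), against -0.15 ± 0.17 for miR-221, so 2 of 2 were below 0 (median -0.28). miR-23a was at 18054, 16429, 9737, 17312 and 20683 CPM with forage and at 9020.1, 10567, 8279, 10654 and 18562 CPM with grain. In both diets 1 library ran against the rest: forage 3 was as low as the grain libraries and grain 5 as high as the forage libraries. Its log2 change was -0.53 ± 0.20. miR-27a-3p, of the miR-23a cluster (0.05 ± 0.12), lay near 0, while miR-10174-3p, the entry with most reads at the position of miR-23b-3p, had -0.29 ± 0.13. miR-24-3p, most of whose reads fit several names or loci, had -0.05 ± 0.12. In the list of the miR-23, miR-24 and miR-27 clusters 7 of 9 were below 0 (median -0.10). Without grain 1 and 3 the median was -0.0005, and the log2 changes were -0.27 for miR-23a and -0.13 for miR-10174-3p.

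The let-7 family, which promotes differentiation by repressing cell-cycle and RAS genes, was below 0 in 13 of 17 members (median -0.20). The median was -0.07 without grain 1 and 3. In PHY cows 4 of 17 were below 0, with a median of 0.14. hsa-let-7d-3p had 57.1, 59.9, 56.4, 53.3 and 60.1 CPM with forage and 44.5, 46.3, 51.2, 42.2 and 44.4 CPM with grain. This strand had tight groups with a gap between them, and a log2 change of -0.33 ± 0.15 (unadjusted p = 0.0470). The abundant members let-7a-5p (-0.25 ± 0.19), let-7f (-0.20 ± 0.16) and let-7b (-0.33 ± 0.19) overlapped widely between the diets, and let-7c had -0.47 ± 0.22. Reads of this family can fit several members, so single members are uncertain.

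Among the remaining miRNAs lower on grain, miR-365-3p (-0.53 ± 0.20), miR-328 (-0.72 ± 0.29) and miR-2484 (-0.83 ± 0.28) were closer to 0 without forage 2, at -0.31, -0.26 and -0.40. The unadjusted p-values without it were 0.0520, 0.201 and 0.0530. miR-2484 had 22.3, 74.5, 28.96, 28.2 and 23.1 CPM with forage and 21.8, 22.98, 15.5, 18.1 and 21.5 CPM with grain. miR-11977 (-0.44 ± 0.18), miR-6119-3p (-0.33 ± 0.13) and miR-193a-5p (-0.33 ± 0.13) had values of similar size without forage 2 (-0.39, -0.28 and -0.35). Forage 2 was the highest of the 10 libraries in 10 of the 15 miRNAs lower on grain. Without it all 15 were still below 0, and 10 had an unadjusted p under 0.05 in place of 15. The 15 were picked by p with all libraries included, so a kept sign says little. Of the 15 miRNAs higher on grain, 6 had an unadjusted p under 0.05 without forage 2, in place of 11. The number over all miRNAs was then 32, against 50 with it. It was 28 without grain 1, which was the highest library in 6 of the 15 miRNAs higher on grain.

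Most miRNAs of the epithelium itself had log2 changes near 0. In the stratified epithelium list 3 of 4 members were below 0 (median -0.04), in the miR-200 family 4 of 5 (median -0.04), and 0 of either had an unadjusted p under 0.05. Both medians lay above 0 without grain 1 and 3, at 0.075 and 0.085. miR-205 stood at 29197, 29107, 27228, 36516 and 30478 CPM with forage and 25205, 29862, 23563, 34856 and 32304 CPM with grain, with fully intermixed libraries and a log2 change of -0.07 ± 0.11. miR-31, another keratinocyte miRNA, had -0.22 ± 0.19, but -0.41 without forage 2 (unadjusted p = 0.0163). miR-149-5p had -0.01 ± 0.24. Of the miR-200 family, which keeps epithelial identity by repressing ZEB1 and ZEB2, miR-200a (-0.04 ± 0.14), miR-200b (-0.02 ± 0.15), miR-200c (-0.14 ± 0.15) and miR-429 (-0.04 ± 0.13) lay near 0. miR-141 had 0.38 ± 0.22, with 2607 to 4409 CPM with forage and 3118 to 7117 CPM with grain. The summed level of the stratified epithelium list was 32099 to 43010 CPM on forage and 27148 to 40283 CPM on grain, and that of the miR-200 family 27571 to 36404 and 26634 to 36811 CPM.

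Leukocyte miRNAs were divided, 3 of 6 above 0 with a median of 0.04. The neutrophil and monocyte miRNA miR-223 had 358, 124, 235, 171 and 224 CPM with forage and 346, 199.9, 362, 229 and 292 CPM with grain, with overlapping groups and a log2 change of 0.36 ± 0.27. The lymphocyte miRNAs miR-150 (0.25 ± 0.21) and miR-342 (-0.17 ± 0.13) lay on opposite sides of 0, and miR-142-5p, found in all blood lineages, at 0.10 ± 0.14. The summed leukocyte level was 3821 to 4454 CPM on forage and 3453 to 5662 CPM on grain. In the list for lipid and energy metabolism 11 of 14 were above 0, with a median of 0.15 that came to 0.05 without forage 2, and 0 had an unadjusted p under 0.05. miR-378, most of whose reads fit several names or loci, had 0.19 ± 0.13, miR-33a, from an intron of SREBF2, 0.16 ± 0.21, and miR-335 -0.34 ± 0.18. Of the DLK1-DIO3 cluster, an imprinted group of mostly scarce miRNAs, 24 of 43 were above 0 (median 0.03). In the bovine miR-2284 and miR-2285 families 19 of 30 were above 0 (median 0.05). In the miR-15/16 family 7 of 11 were below 0 (median -0.04), and in the neural list 8 of 11 were above 0 (median 0.11, and -0.02 without grain 1 and 3). The columnar gut list had 3 of 5 below 0 (median -0.03). Several of these medians moved, or changed sign, with the libraries included. Without forage 2 they were -0.04 for leukocyte miRNAs and -0.15 for the miR-15/16 family, and 0.22 for the DLK1-DIO3 cluster. Without grain 1 and 3 they were -0.14 for leukocyte miRNAs and -0.09 for the DLK1-DIO3 cluster.

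Some miRNAs of other organs and of red cells were high in grain libraries 1 and 3. The 10 miRNAs looked at for this, which were chosen after their values had been seen, were miR-122 of liver, hsa-miR-124-3p of neurons, miR-375 of endocrine and columnar cells, miR-202 of gonads, miR-302a to miR-302d of pluripotent cells, and miR-486 and miR-451 of red cells. In 10 of 10 the highest control libraries were grain 1 and grain 3. Other miRNAs of columnar gut, not among the 10, had narrow grain groups. On grain miR-192 had 263 ± 10.8 CPM, miR-194 442 ± 18.4 CPM and miR-215 64.5 ± 6.69 CPM (SD, n = 5). Grain 1 and 3 were the highest pair in 31 of all 468 tested miRNAs (6.62%), a count that includes these 10. Forage 2 with grain 2 were the highest pair in 37 (7.91%), and forage 5 with grain 5 in 28 (5.98%). miR-122 stood at 82.6, 61.8, 105, 81.6 and 77.03 CPM in the forage libraries and 169, 99.9, 171, 70.3 and 66.8 CPM in the grain libraries. The other 3 grain libraries lay within or just below the forage range. Its log2 change of 0.50 ± 0.29 was -0.04 without grain 1 and 3. miR-486 had 1344, 821, 1502, 1127 and 1055 CPM with forage and 2461, 1494, 2537, 1085 and 1039.8 CPM with grain, and its 0.56 ± 0.27 came to 0.05 without them. miR-451 went from 0.35 ± 0.29 to -0.13. The erythroid list as a whole was above 0 in 3 of 3 members (median 0.35), and its median was -0.13 without grain 1 and 3. Leaving out 1 library at a time gave medians from 0.15 (without grain 3) to 0.54 (without forage 1). Their summed level was 6404 to 14199 CPM on forage and 7895 to 18352 CPM on grain. Grain 1 had the fewest counted reads, 5.74 M, while grain 3 had 8.64 M. The source of these miRNAs was not tested. Leaving out both libraries gave 0 calls by edgeR and 27 miRNAs at an unadjusted p under 0.05. Of these, 15 were above 0 and 12 below, against 18 and 32 with all libraries. The 15 miRNAs higher on grain, picked by p with all libraries included, were still all above 0, which says little. Of them, 9 had an unadjusted p under 0.05, against 11 with all libraries.

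**Figure D3:**
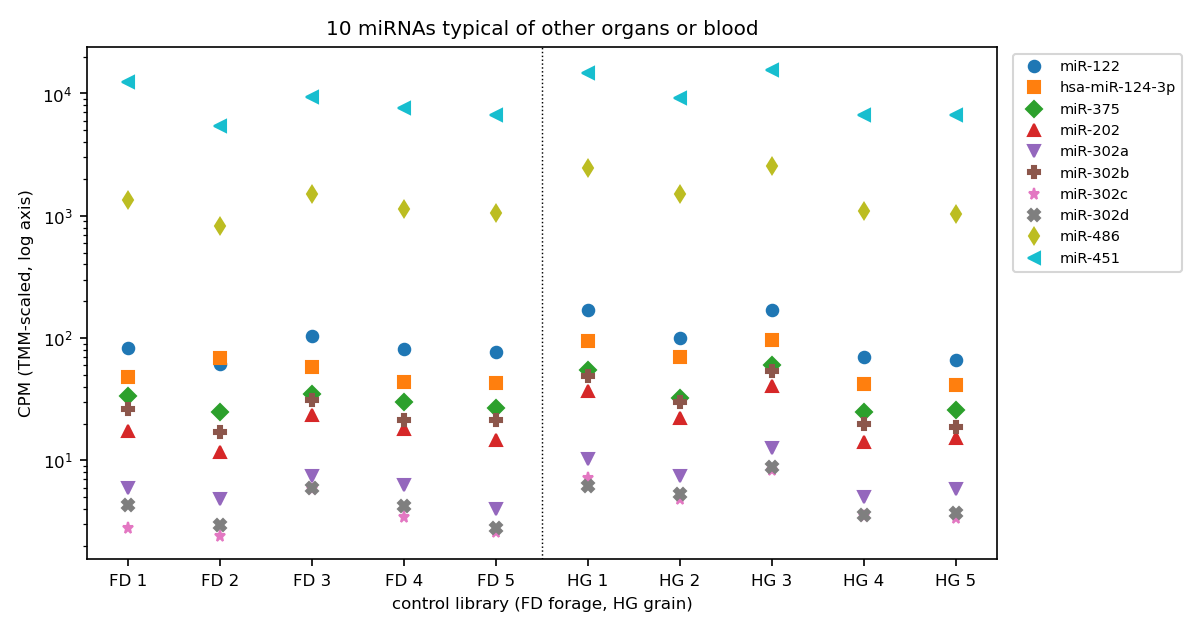
Level (CPM, log axis) of 10 miRNAs typical of liver, nerve, gonads, endocrine and pluripotent cells or red cells in the 10 control libraries, forage left and grain right of the dotted line. For each of the 10 the highest libraries are grain 1 and grain 3, for example 169 and 171 CPM of miR-122 against 61.8 to 104.9 CPM on forage.

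The make-up of the miRNA pool passed its test with libraries taken as independent, but not with same-numbered libraries taken as pairs. The 10 most abundant miRNAs held 66.9%, 69.2%, 67.6%, 66.5% and 69.0% of the counted reads in forage libraries 1 to 5, and 62.95%, 63.7%, 64.6%, 65.5% and 66.0% in grain libraries 1 to 5. All grain libraries were below all forage libraries. The share fell from 67.8% ± 1.22 to 64.5% ± 1.27 (SD, n = 5 each; exact permutation p = 0.00794, two-sided, the smallest that the arrangements of 5 and 5 libraries allow; 0.0317 after Benjamini-Hochberg adjustment over 4 library measures). Shannon entropy, a measure of how evenly reads are spread over miRNAs, rose from 4.77 ± 0.103 to 4.98 ± 0.0809 bits (exact permutation p = 0.0159, adjusted 0.0317). With the replicate number as a block, exact sign flips over the pairs gave p = 0.0625 for both measures, the smallest that 5 pairs allow, so that test cannot pass the threshold. The remaining measures did not pass: the share of all reads assigned to miRNAs was 37.2% ± 7.66 on forage and 32.7% ± 4.62 on grain (exact permutation p = 0.278), and the number of miRNAs seen at equal depth was 562.8 ± 6.06 and 550.2 ± 21.1 (exact permutation p = 0.254).

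Within the top 10, miR-143 and miR-21-5p had the largest drops in mean share on grain, neither of which passed its test. miR-143 took 15.6% ± 4.48 of the reads on forage and 11.9% ± 1.55 on grain (SD, n = 5; exact permutation p = 0.0635), and miR-21-5p 22.6% ± 3.98 and 20.9% ± 2.72 (exact permutation p = 0.476). The share on forage and on grain was 5.77% and 6.32% for miR-24-3p, 4.68% and 5.14% for miR-26a, 4.49% and 4.94% for miR-27b, 4.06% and 3.86% for let-7a-5p, and 2.81% and 3.05% for miR-205. With miR-143 taken out of the pool, the 10 most abundant held 63.9% ± 1.70 on forage and 62.2% ± 1.78 on grain (exact permutation p = 0.167), and entropy differed by 0.131 bits (exact permutation p = 0.175), so neither passed its test. In PHY cows the top 10 held 66.997% ± 0.490 on forage and 66.5% ± 1.59 on grain (SD, n = 4; exact permutation p = 0.543).

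**Figure D4:**
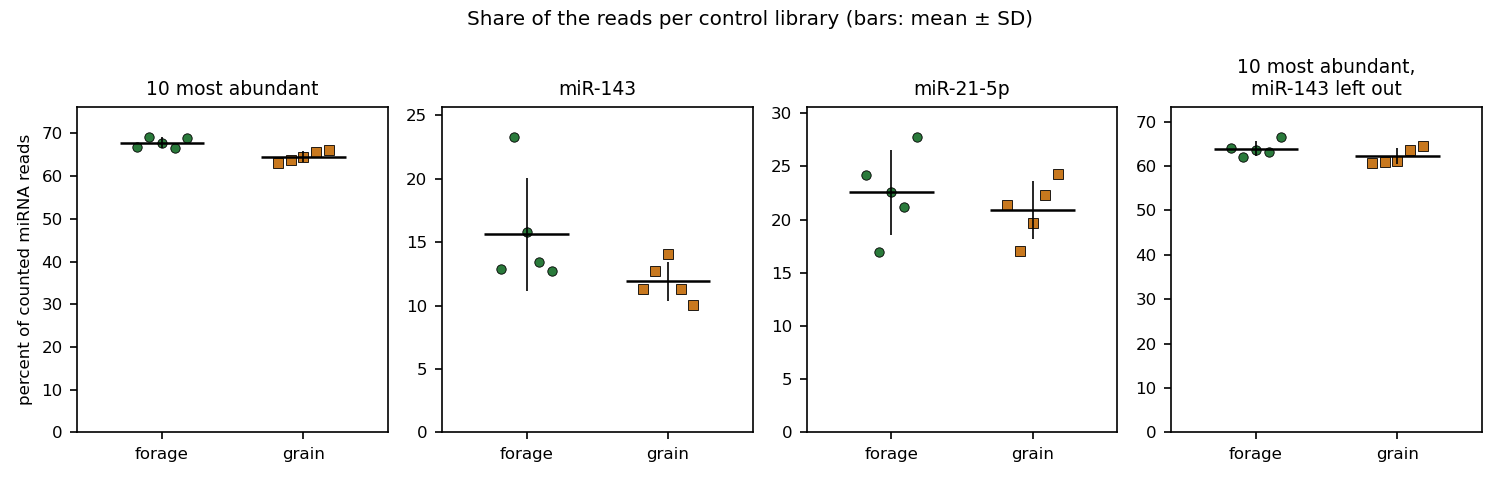
Share of the counted miRNA reads (percent, axes from 0) in each control library held by the 10 most abundant miRNAs, by miR-143, by miR-21-5p and by the 10 most abundant with miR-143 left out of the pool, with mean and SD. The top 10 share is 62.95 to 66.0% in grain libraries and 66.5 to 69.2% in forage libraries; with miR-143 left out the groups overlap.

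Strands and neighbours gave a view of which differences belonged to a whole precursor. For 9 of the 30 miRNAs the opposite strand was tested, and in 6 it had the same sign (miR-345, miR-30b, miR-365, miR-145, miR-23a and miR-6119) and in 3 the opposite one (miR-25, miR-151 and miR-193a). miR-145 was the pair with both strands at an unadjusted p under 0.05. Of 48 groups of tested miRNAs within 10000 nt of each other on a chromosome, 26 had all members on one side of 0. A pair found at 5 places, miR-2904 with miR-2887, was counted once, and some groups share a member, such as miR-29b. The miR-143 and miR-145 group on chromosome 7 had 3 of 3 lower on grain, each at an unadjusted p under 0.05. Also below 0 throughout were miR-193b with miR-365 on chromosome 25 (4 of 4, median -0.34), let-7c with miR-99a on chromosome 1 (4 of 4, median -0.35) and miR-29a with miR-29b-1 on chromosome 4 (4 of 4, median -0.24). Strands and neighbours share a transcript, so they are not independent.

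The cows given PHY went through the same change of diet and gave another 4 forage and 4 grain libraries. There too edgeR called 0 of 468 miRNAs (0.00%), with 33 at an unadjusted p under 0.05 (7.05%). Of the 15 miRNAs higher on grain in control cows, 12 were above 0 in PHY cows, and of the 15 lower ones 13 were below 0. For comparison, 175 of the 275 miRNAs of at least 10 CPM (63.6%) had the same sign in both. The sizes were smaller in PHY cows: the median log2 change was 0.48 in control cows and 0.15 in PHY cows for those higher on grain, and -0.49 and -0.19 for those lower on grain. Both groups of 15 were picked on the control cows. Lists below 0 in control cows differed in PHY cows. The muscle list was below 0 there in 5 of 6 members (median -0.31) and the fibroblast list in 6 of 7 (median -0.13). The let-7 family was below 0 in 4 of 17 (median 0.14), and miR-221 with miR-222 in 0 of 2 (median 0.23). In PHY cows miR-320a had 0.51 ± 0.13, hsa-miR-93-5p 0.36 ± 0.11, miR-671 0.79 ± 0.33 and miR-30c -0.41 ± 0.17, each at least as far from 0 as in control cows. miR-143 (-0.42 ± 0.18), miR-125b (-0.37 ± 0.19), miR-25 (0.17 ± 0.13), miR-199b (-0.13 ± 0.18) and miR-23a (-0.04 ± 0.23) were closer to 0 there. Among the 30 picked miRNAs, miR-193a-5p had the lowest p for a difference between the arms, with opposite signs: -0.33 ± 0.13 in control and 0.29 ± 0.14 in PHY cows. The test of the difference between arms, an interaction term in edgeR, gave it an unadjusted p of 0.00390 and an adjusted p of 0.914. That test called 0 of 468 miRNAs (0.00%), with 10 at an unadjusted p under 0.05 (2.14%) and 0.849 as the lowest adjusted p, so no diet difference was shown to be particular to the control cows.

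**Figure D5:**
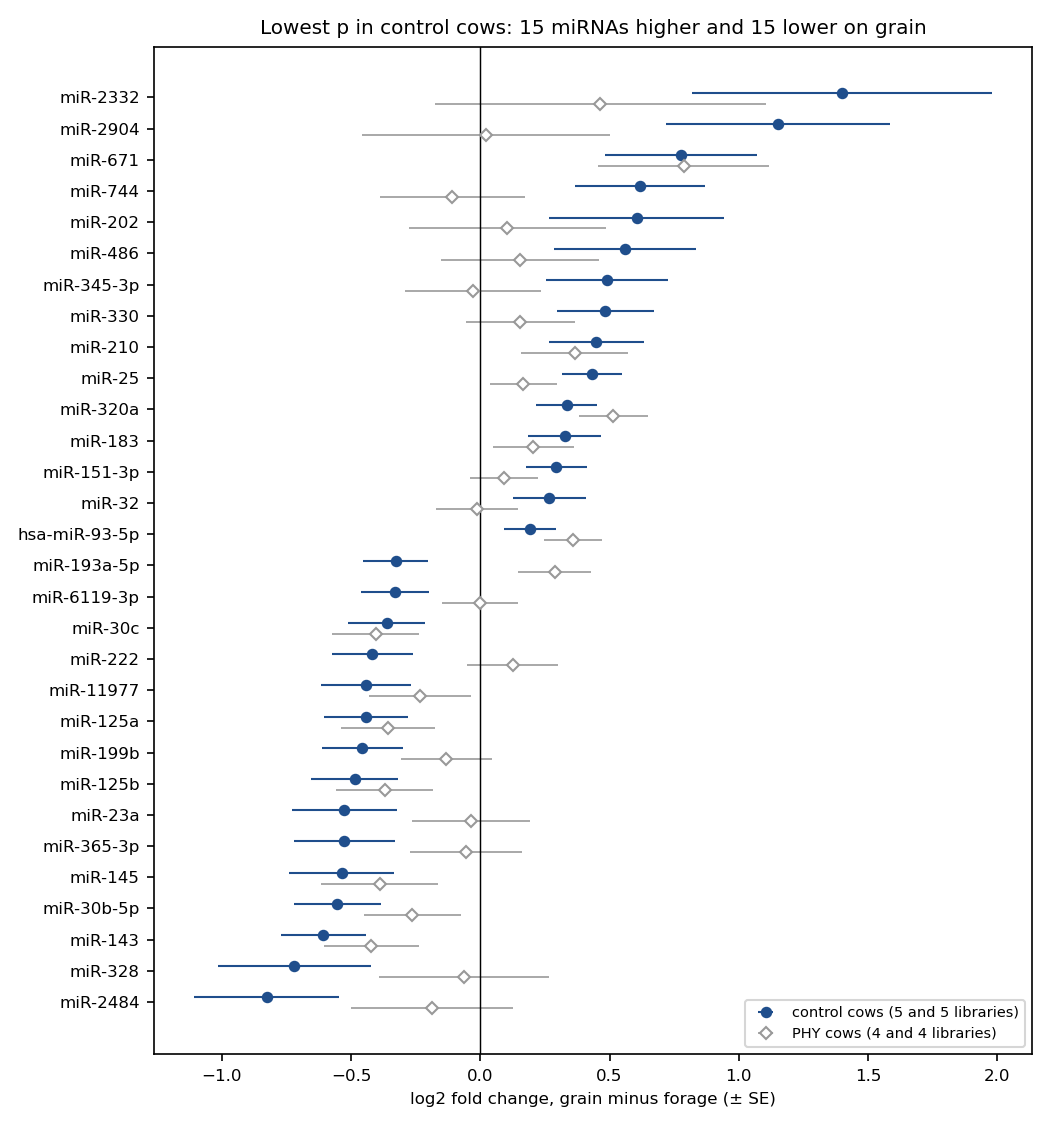
Log2 fold change of grain over forage (± SE) for the 15 miRNAs higher and the 15 lower on grain with the lowest p in control cows (filled circles), beside the same contrast in PHY cows (open diamonds). In PHY cows 12 of the upper 15 lie above 0 and 13 of the lower 15 below 0, with values that are smaller for most.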

How the data were processed

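The deposited file of each library gives, per the file headers, the authors' raw read count and an expected count in which they divided reads among the names and loci they fit. Tools named in the submitters' processing notes are bcl2fastq 2.20 and, without a version, DESeq2; the sources used here give neither the aligner nor the genome build. Per the labels' protocols, RNA came from the NucleoSpin miRNA kit and libraries from the NETflex Small RNA-Seq kit. The authors' files list no count below 2. The 966 names (759 bovine, 207 human) were joined into 824 miRNAs where positions overlapped by at least 15 nt, or where a bovine and a human name of one miRNA had totals within 5%, and each is called by the name with most reads; hsa marks human entries. Family members can share reads. Raw counts were tested with edgeR 4.0.16 (R 4.3.3): filterByExpr, TMM, 1 mean for each of 4 groups over all 18 libraries, the quasi-likelihood test, two-sided, and Benjamini-Hochberg adjustment with a threshold of 0.05. limma 3.58.1 and DESeq2 1.42.0 were alternatives. The script was tested on simulated data. Of the 356 miRNAs not tested, the highest mean was 0.858 CPM. No coordinates or sequences are printed. Same-numbered forage and grain libraries were not treated as pairs. miRNAs were named by rule: the 15 higher and 15 lower with the lowest p at a mean of at least 10 CPM, their opposite strands, up to 3 members of each of 22 lists by lowest p, and the 10 most abundant; further members of a list, and miR-2320-5p, were chosen after their values were seen. The members and lists were chosen with earlier results of these data known. Replicates differed by far more than counting noise (chi-square per degree of freedom 248.9 to 2930.0), so none was a copy. p-values rest on the spread between libraries taken as independent, for edgeR over all 18 of them. They leave out that forage and grain libraries came from the same cows. The library numbers are not stated to be cows.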

Additional observations from a re-analysis of the deposited data

Results flagged for a closer look

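In 17 of 200 groups of 5 libraries checked, 1 library lay far from the other 4 by Dixon's ratio of its gap to the range of the group, where chance alone gives about 1 in 20. Forage library 2 accounted for 9 of the 17: miR-143 (286183 CPM), miR-145 (10602 CPM), miR-30b-5p (4178 CPM), miR-126-5p (3664 CPM), miR-365-3p (3391 CPM), miR-328 (95.9 CPM), miR-2484 (74.5 CPM), and miR-29d-5p and hsa-miR-29c-5p, which share reads (50.7 CPM each). All 9 were the highest of their group. Grain library 2 stood out for miR-30a-5p (44597 CPM), miR-330 (34.6 CPM) and miR-328 (36.4 CPM), and forage library 5 for miR-7 (1347 CPM) and miR-2904 (62.4 CPM). In grain library 4, miR-193a-5p (243.5 CPM) and miR-10174-5p (9.60 CPM) were as high as on forage, while the other grain libraries were lower, and in grain library 5 the same held for miR-23a (18562 CPM). The causes were not tested.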

How the results depend on the processing

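The count of called miRNAs was 0 in all 24 alternatives, with the lowest adjusted p between 0.0750 and 0.759. At an unadjusted p under 0.05 the count ranged from 28 to 61 with 1 library left out, and was 27 without grain 1 and 3, an alternative chosen after seeing the data. Same-numbered forage and grain libraries correlated in their deviations by 0.0151 to 0.420 (4 of 5 pairs over 0.1; 3 of 5 forage libraries fitted their own number best). These values lean towards pairs and do not show independence. The numbers were not taken as pairs because the labels do not tie them to cows. With the replicate block 0 were called, with 56 (control libraries) and 63 (all 18) at an unadjusted p under 0.05. An exact sign-flip permutation over the pairs left the top 10 share (-3.30 percentage points) and entropy (0.209 bits) at p = 0.0625, the smallest that 5 pairs allow. With miR-143 left out, chosen after seeing the data, the share differed by -1.73 points, entropy by 0.131 bits (exact permutation p = 0.175) and miRNAs seen at equal depth by -17.8 (exact permutation p = 0.0238).

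Of 2281 alternative values for 96 miRNAs 36 changed sign, 0 of them among the 30 picked. Those 30 were picked by low p in the same libraries, so a change of sign was unlikely from the start. With 1 library left out the log2 change ran from -0.27 to 0.024 (miR-221), -0.092 to 0.44 (miR-30a-5p), -0.13 to 0.0066 (miR-205), -0.052 to 0.18 (miR-193a-3p), -0.17 to 0.054 (miR-26a), -0.15 to 0.027 (miR-24-3p), -0.71 to 0.087 (hsa-miR-23a-5p), -0.077 to 0.013 (miR-151-5p), -0.12 to 0.035 (miR-429), -0.23 to 0.13 (hsa-miR-25-5p) and -0.12 to 0.17 (miR-34c). Without grain 1 and 3 it was -0.039 (miR-122), -0.020 (hsa-miR-124-3p), -0.11 (miR-375), -0.11 (miR-424-3p), -0.13 (miR-451), -0.21 (miR-144), 0.11 (miR-205), 0.019 (miR-24-3p), 0.26 (hsa-miR-23a-5p), 0.051 (miR-151-5p), 0.066 (miR-429) and -0.031 (miR-34c). limma-voom gave -0.024 (miR-184) and 0.016 (miR-429). miR-34c was -0.011 with upper-quartile scaling, -0.031 with adjusted counts and -0.093 with thinned counts. The causes were not tested. Depth limits scarce miRNAs: the median SE was 0.78 below 1 CPM and 0.13 above 10000 CPM.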

Other observations

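Differences leaned by abundance. Of the 19 miRNAs above 10000 CPM, 14 were below 0 (median log2 change -0.10), and 0 were higher and 4 lower at an unadjusted p under 0.05. Of the 58 between 1000 and 10000 CPM, 3 were higher and 12 lower. Of the 155 between 1 and 10 CPM, 4 were higher and 3 lower, and 78 were below 0. The TMM factors, which set this centre, lay between 0.815 and 0.992 in the forage libraries and above 1 in every grain library. Small log2 changes depend on such scaling, and no fit without any scaling was run. For example, miR-205 had a log2 change of -0.07 but held 2.81% of the reads on forage and 3.05% on grain. miR-24-3p, miR-26a and miR-27b likewise had log2 changes below 0 but a higher mean share on grain. So did let-7g, with a log2 change of -0.104 and shares of 2.198% and 2.33%. let-7f had a log2 change of -0.196 and nearly equal shares of 3.32% and 3.29%. let-7a-5p was lower both ways, with a log2 change of -0.25 and shares of 4.06% and 3.86%. miR-143 and miR-21-5p were also lower both ways. No difference in share named here had an exact permutation p under 0.05.

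The scarce miR-2320-5p did not overlap between the diets in control cows and had the opposite direction in PHY cows. It was at 0, 0.403, 0.515, 0.906 and 0.467 CPM with forage and 2.69, 1.003, 1.15, 1.24 and 1.32 CPM with grain in control cows, a log2 change of 1.66 ± 0.60. In PHY cows it was at 1.61 ± 0.338 CPM with forage and 0.549 ± 0.333 CPM with grain (SD, n = 4), a log2 change of -1.54 ± 0.66. The edgeR test of the difference between arms gave an unadjusted p of 0.00181 and an adjusted p of 0.849. These levels correspond to few reads per library.

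The miR-302 group on chromosome 6, 4 miRNAs known from pluripotent cells, was above 0 in 4 of 4 members (median log2 change 0.54). With grain libraries 1 and 3 left out, the values ranged from -0.03 (miR-302b) to 0.20 (miR-302c).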
